A study of Mus musculus with 2 samples.

Results

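Malat1, Neat1, Gas5, Snhg1, Snhg4, Snhg12, H19 and Meg3 are genes known for RNAs that do not code for protein. They were picked by gene symbol, and all 8 were found among the 22072 symbols of both expression tables. The tables describe epithelial cells sorted from adult mouse lung as lineage-negative, CD326-positive and CD24-intermediate, a gate meant to enrich secretory airway cells without motile cilia. Each library was made from the pooled RNA of 4 mice, all of them homozygous for the floxed alleles Mst1-flx/flx and Mst2-flx/flx, carrying tetOCre and fed doxycycline (625 mg/kg food) for 16 days. The mice of the second library, labelled Mst1/2-deleted and called the deleted library here after its label, carried Scgb1a1-rtTA in addition, whereas the control mice lacked it. The Scgb1a1 promoter, active in club cells, drives the transactivator that turns on Cre under doxycycline. The transactivator, Cre activity and loss of Mst1 and Mst2 (the Hippo kinase genes Stk4 and Stk3) therefore cannot be told apart.

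With 1 library per genotype there was no replicate check of any difference, and no test was made. Levels are FPKM, the fragments of a transcript relative to its length and to all mapped fragments, summed over the rows of a symbol. Intervals are 95% intervals for counting error only, based on about 8770000 reads on listed transcripts in the control and 8340000 in the deleted library. They leave out differences between mice, sorts and library preparations, and they treat copies made by PCR as separate molecules. The deleted genes gave no check of the label: Stk4 (Mst1) had FPKM of 5.38 in the control and 4.71 in the deleted library, and Stk3 (Mst2) 7.28 and 7.09, over whole transcripts that may keep exons outside the deletion. Among club cell markers, Cyp2f2 had FPKM of 4694 and 5305, and the secretoglobin genes Scgb3a1 and Scgb3a2 were lower in the deleted library, at 477 and 121 and at 691 and 256. Scgb1a1 was listed at 0 in both libraries with a failed estimate. Alveolar type 2 markers were abundant as well, with Sftpc at 7888 and 10270.

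Malat1 is a long nuclear RNA that gathers at nuclear speckles, bodies rich in splicing factors. Neat1 is the scaffold RNA of paraspeckles, nuclear bodies that hold RNA-binding proteins. Gas5 and the Snhg genes are host genes of small nucleolar RNAs (snoRNAs), short guide RNAs that direct chemical modification or processing of ribosomal RNA. The snoRNAs are cut from the introns, while the spliced host RNA of Gas5 is known to be removed by nonsense-mediated decay. Gas5 RNA also begins with a 5′ terminal oligopyrimidine (TOP) tract, a stretch of C and T at the start that is typical of ribosomal protein genes. H19 and Meg3 are imprinted RNAs, made from the maternal chromosome, abundant in the fetus and low in most adult tissues.

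The start regions of Gas5, Snhg1, Snhg12 and Malat1 are shown because the host genes are known for their pyrimidine-rich starts. The sequences are from RefSeq (GRCm38.p6, a later build than the mm9 of the expression tables) and run from 30 bases before to 50 bases from the annotated start, 5′ to 3′ along the gene. Capitals mark the unbroken run of C and T that holds the first transcribed base. Gas5 has a pair of annotated starts, and the tables do not say which was used.
Gas5, chr1:161034571-161034650, plus strand: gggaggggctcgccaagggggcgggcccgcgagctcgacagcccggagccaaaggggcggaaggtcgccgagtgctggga
Gas5, chr1:161035136-161035215, plus strand: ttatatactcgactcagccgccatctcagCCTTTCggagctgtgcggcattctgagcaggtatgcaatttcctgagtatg
Snhg1, chr19:8723457-8723536, plus strand: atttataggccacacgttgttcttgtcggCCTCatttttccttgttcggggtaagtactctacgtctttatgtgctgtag
Snhg12, chr4:132308648-132308727, plus strand: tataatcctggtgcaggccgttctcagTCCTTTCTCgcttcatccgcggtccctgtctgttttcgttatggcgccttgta
Malat1, chr19:5802623-5802702, minus strand: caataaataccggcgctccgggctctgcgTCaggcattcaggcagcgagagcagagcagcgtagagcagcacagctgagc

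The run over the start was 9 bases long in Snhg12, 6 in the second Gas5 start and 4 in Snhg1. It was 2 bases in Malat1, and the first Gas5 start begins with G. Of 32851 annotated start windows in the same table, 13.97% had a run of at least 4 bases there, 7.25% one of at least 6 and 3.86% one of at least 8. RefSeq start windows were matched for 5 of the 8 genes. The TEAD motif CATTCC, or GGAATG on the other strand, which the DNA-binding partners of Yap and Taz recognise, had 0 matches in the 7 windows of 300 bases of these 5 genes, while 14.7% of all windows held it. This says only that these letters are not in the windows.

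The snoRNAs that lie inside the host genes and had reads are shown next, from GENCODE transcripts (M21). Snord47 lies in Gas5, Snord22 in Snhg1, and Snora61 and Snora44 in Snhg12. Box C/D snoRNAs (Snord) carry a C box near the start and a D box near the end, and box H/ACA snoRNAs (Snora) an ACA just before their last bases. Capitals mark the first TGATGA and a CTGA within the last 15 bases in the Snord sequences, and an ACA followed by exactly 3 bases in the Snora sequences.
Snord47: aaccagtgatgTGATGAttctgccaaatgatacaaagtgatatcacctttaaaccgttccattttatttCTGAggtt
Snord22: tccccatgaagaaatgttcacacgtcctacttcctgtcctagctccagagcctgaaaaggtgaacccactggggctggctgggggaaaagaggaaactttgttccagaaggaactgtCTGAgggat
Snora61: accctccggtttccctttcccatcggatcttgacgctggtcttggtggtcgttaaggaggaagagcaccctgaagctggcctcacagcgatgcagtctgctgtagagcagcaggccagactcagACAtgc
Snora44: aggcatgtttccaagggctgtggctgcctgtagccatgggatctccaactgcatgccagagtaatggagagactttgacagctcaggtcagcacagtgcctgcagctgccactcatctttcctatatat

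Searched on the RNA strand only, TGATGA was in 26.1% of 1507 annotated mouse snoRNA transcripts, CTGA in the last 15 bases of 31.4%, and ACA before the last 3 bases of 18.3%. The 1507 transcripts were not split by box class, so these are not the shares of a class that carry its own box. Snord22 had no exact TGATGA and Snora44 no ACA at that place. The expression tables list shorter forms of Snora61 (62 bases against 130), Snord47 (65 against 77) and Snora44 (117 against 129), and the same 126 bases for Snord22.

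The 8 genes spanned more than 3 orders of magnitude in level, and Malat1 stood far above the rest. In the control library the order was Malat1, Snhg1, Neat1, Gas5, Snhg12, Snhg4, Meg3 and H19. There the counting intervals of neighbours overlapped only for Snhg4 and Meg3. In the deleted library, Neat1 stood above Snhg1 with overlapping intervals. Meg3, H19 and Snhg4 followed Snhg12 in that order, each overlapping the next. All 8 reached FPKM of 1 in at least 1 library, the level at which a gene was taken as measured, as did 9945 genes in all. H19 and Meg3 reached it only in the deleted library and Snhg4 only in the control library.

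**Figure D1:**
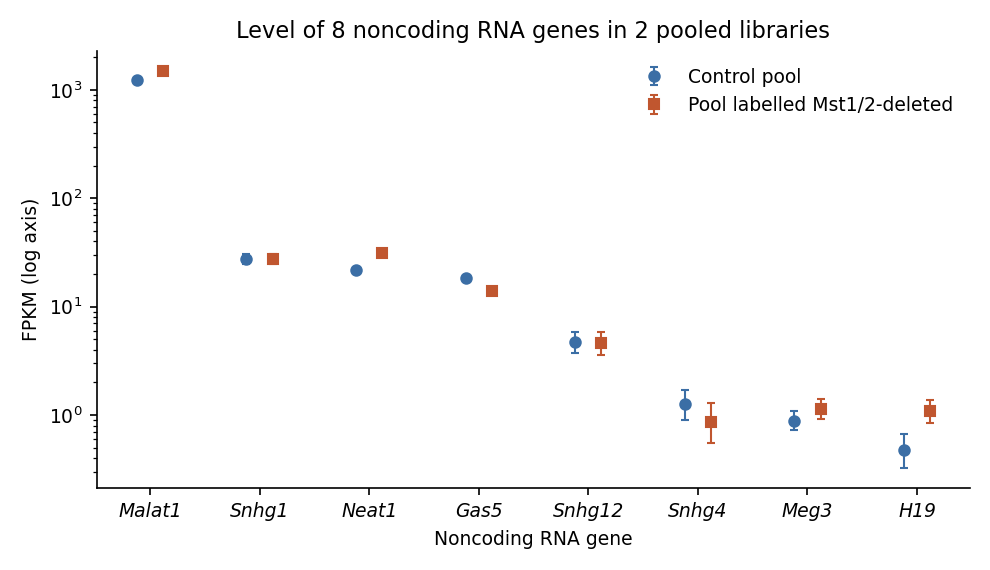
FPKM on a log axis for each of the 8 genes, with circles for the control pool and squares for the pool labelled Mst1/2-deleted, and bars for 95% counting intervals (an approximate one for Meg3, which has several rows). Malat1 lies at 1228 and 1499, Snhg1, Neat1 and Gas5 between 14.1 and 31.2, and Snhg4, Meg3 and H19 near 1.

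None of the 8 genes was 1.5-fold apart in either direction on the log2(FPKM + 1) scale. Over all measured genes 5.61% were, so for 8 genes a count of 0 is close to the background. On that scale, differences lay between -0.35 for Gas5 and 0.51 for H19, with 4 genes above 0 and 4 below. Their median of 0.09 was near the median of 0.07 over all measured genes, of which 63.2% lay above 0. The counting interval of the ratio lay above 1 for Malat1, Neat1 and H19 and below 1 for Gas5. It held 1 for Snhg1, Snhg4, Snhg12 and Meg3. Over all measured genes, 42.0% had an interval that left out 1, so 4 of 8 is again near the background.

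**Figure D2:**
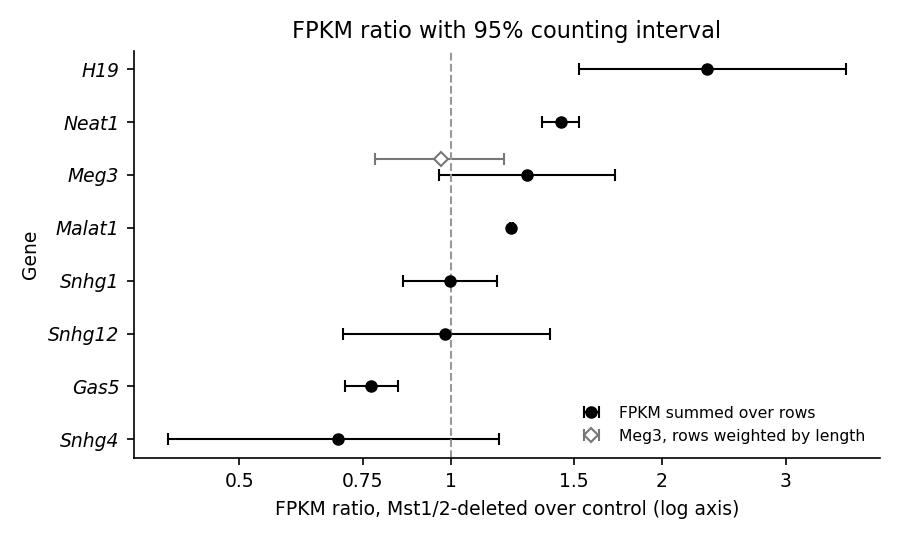
Ratio of FPKM in the deleted library to that in the control library, on a log axis, with 95% counting intervals; the open diamond is Meg3 with its rows weighted by length. H19 (2.32), Neat1 (1.44) and Malat1 (1.22) lie right of 1 and Gas5 (0.771) left of it with intervals that leave out 1, while Meg3 moves from 1.29 to 0.968 with the weighting.

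Malat1 (chr19:5795690-5802671, mm9, as for all loci that follow) is listed as an unspliced transcript of 6982 bases, the whole span of its locus. Its FPKM was 1228 in the control and 1499 in the deleted library, a ratio of 1.22 (interval 1.21 to 1.23). It ranked 9 among all symbols in the first and 7 in the second. The gene took 2.65% of all listed bases in the control and 3.04% in the deleted library. Among measured genes whose entries are all noncoding and at least 300 bases long, 170 in number, it ranked 1 in both libraries. The interval is narrow because it rests on about 232210 and 253475 reads, and 24.4% of measured genes had a larger difference on the log2(FPKM + 1) scale. The difference of 0.29 shrank to 0.17 when a trend of the differences with transcript length was removed.

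Neat1 (chr19:5842302-5845478) is listed with its short form only, 3177 bases without a splice, and the long form that builds paraspeckles was not analysed here. FPKM was 21.7 in the control and 31.2 in the deleted library. The ratio was 1.44 (1.35 to 1.53), and 7.93% of measured genes had a larger difference. Under the length trend its log2 difference went from 0.50 to 0.43. Neat1 lies 39.6 kb from Malat1 on the same chromosome. Genes around the pair lay on both sides of 0. Frmd8, 5.50 kb from Neat1, had FPKM of 1.96 and 2.58, and Ltbp3, a matrix protein gene, 7.03 and 9.68. Lower in the deleted library were Slc25a45, a mitochondrial carrier gene, at 2.47 and 1.30, and Tigd3 at 1.10 and 0.831.

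Genes for proteins of the nuclear bodies to which these RNAs belong had differences from -0.04 to 0.19 on the log2(FPKM + 1) scale, against 0.29 for Malat1 and 0.50 for Neat1. All 10 listed paraspeckle protein genes were measured, 8 were above 0 and 0 were 1.5-fold apart, with a median log2(FPKM + 1) difference of 0.07. Hnrnpk, which had the highest level, stood at FPKM of 71.0 and 78.3, and Nono, a core paraspeckle protein gene, 23.8 and 25.5. Of 10 nuclear speckle genes, 9 were above 0 and 0 were 1.5-fold apart, with a median of 0.05. The splicing factor gene Srsf5 had FPKM of 94.6 and 102, and Srsf2 82.4 and 87.7. Both medians lay close to the 0.07 of all measured genes, of which 63.2% lay above 0.

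Gas5 (chr1:162965297-162968668) is listed as a transcript of 2554 bases in a span of 3372, so the entry covers most of the locus. Its FPKM was 18.3 in the control and 14.1 in the deleted library, a ratio of 0.771 (0.706 to 0.841). It was the only one of the 8 genes whose interval lay below 1. A larger difference was seen for 16.7% of measured genes. Snhg1 (chr19:8797977-8800816; 476 of 2840 bases) had FPKM of 27.7 in both libraries, with a ratio of 0.999 (0.856 to 1.17). Snhg12 (chr4:131864593-131866939; 606 of 2347 bases) had 4.70 and 4.61, a ratio of 0.982 (0.702 to 1.39). For Snhg12 the interval leaves room for a level from 1.42-fold lower to 1.39-fold higher. Of the snoRNA hosts, Gas5 was thus lower beyond counting error and the others had intervals that held 1.

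Snhg4 (chr18:35713064-35717970; 1151 of 4907 bases) had FPKM of 1.26 in the control and 0.871 in the deleted library. It rested on about 39 and 24 reads, and its ratio of 0.692 had an interval from 0.396 to 1.17. No difference was detectable at this depth. The next gene downstream in the tables, Matr3, encodes a nuclear matrix protein and had FPKM of 8.18 and 8.87. Slc3a2, an amino acid transporter subunit gene 0.117 kb from Snhg1, had 47.0 and 44.9. Zbtb37, 0.906 kb from Gas5, was low at 0.983 and 1.45.

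Inside the 8 loci the tables list 12 short transcripts under 300 bases, 7 of them snoRNAs and 5 microRNA precursors. They were at or near 0 in both libraries for 6 of the 12 and above 0 for 6 in the control and 3 in the deleted library. Of 123 snoRNA entries in the whole tables, 54.5% were at 0 in both. Snord22, in Snhg1, had FPKM of 5.20 and 2.17 on about 18 and 7 reads, and the ratio of its host was 0.999. No counting interval was made for Snord22, so it is not read as differing from its host. Mir5117, in Gas5, had 6.77 and 6.83, with an estimation status of low data. Snora44, in Snhg12, had 0.915 and 1.69 on about 3 and 5 reads. The remaining 3 had reads in the control library only. Snora61 had FPKM of 6.23 and was listed at 0 in the other, 3.12-fold lower if the other is set to a floor of 3 reads. Mir1949, in Snhg4, had 5.06 and 0, 2.86-fold lower by the same floor, and Snord47, in Gas5, 3.21 and 0, 1.69-fold lower. These ratios rest on about 10, 10 and 6 reads in the control library. They leave out the counting error of those reads, so they are not lower bounds. In the whole tables, 12 snoRNA entries had reads in the control library only and 9 in the other only. How such reads were shared between a short RNA and its host is not given in the sources used here.

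H19 (chr7:149761437-149764051) is listed as 2615 unspliced bases. FPKM was 0.473 in the control and 1.10 in the deleted library, the highest ratio of the 8 genes at 2.32 (1.52 to 3.65). It rested on about 33 and 69 reads. Both levels were low, which is why the difference was only 0.51 on the log2(FPKM + 1) scale; with a pseudocount of 0.1 it was 1.06, past 1.5-fold. H19 contains the precursor of miR-675, shown here with the seed (bases 2 to 8) in capitals, from RefSeq (GRCm38.p6, chr7, minus strand). The precursor was listed at 0 in the control library and at no more than a trace in the other, with low-data status, and a library of this kind is not made to capture mature microRNAs.
miR-675-5p: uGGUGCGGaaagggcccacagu
miR-675-3p: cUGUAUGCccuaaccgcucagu

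Meg3 (chr12:110779206-110809939) has 3 transcript entries, and its direction depended on how they were combined. The long entry of 11422 bases had FPKM of 0.585 in the control and 0.509 in the deleted library, a ratio of 0.871 (0.694 to 1.09). The entry of 1913 bases had 0.305 and 0.635, a ratio of 2.08 (1.06 to 3.99), on about 16 and 29 reads. A further entry of 11410 bases, nearly the same as the first, was listed at practically 0 in both. Summed FPKM was 0.890 and 1.14, a ratio of 1.29 with an approximate interval of 0.963 to 1.72. Weighted by length, which follows the reads, the ratio was 0.968 (0.781 to 1.19). No direction can be given for the gene.

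Other imprinted genes were read beside H19 and Meg3. Of 20 listed, 13 were measured, 8 above 0 and 5 below, with 0 at 1.5-fold and a median of 0.19 against 0.07 for all genes. Among all measured genes 63.2% lay above 0. The most abundant were Gnas, a G protein subunit gene, at FPKM of 238 and 278, and Nnat at 20.8 and 25.8. Igf2, the growth factor gene that shares its enhancers with H19, had 2.80 and 2.58. In the Meg3 domain, Rian had 0.529 and 0.485, while Dlk1 (0.0337 and 0.0875) and Rtl1 (0.0207 and 0.0285) were close to 0.

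Because H19 and Meg3 are known from mesenchymal cells, markers of cells that a sort can carry along were read in the same libraries. Of 9 mesenchymal markers 4 were measured, all 4 below 0, and the FPKM of the list summed to 19.9 in the control and 8.14 in the deleted library. The largest part of that sum was Dcn, at 11.9 and 3.79. Leukocyte markers summed to 17.2 and 8.57 and endothelial markers to 10.9 and 6.55. Most of the endothelial sum was Kdr, at 9.05 and 5.11. Cdh5 (0.425 and 0.475) and Tie1 (0.0816 and 0.114), both below FPKM of 1, were higher in the deleted library. None of the mesenchymal, leukocyte and endothelial markers was at 0 in both libraries. Of the 6 leukocyte markers that were measured 5 lay below 0, as did the 1 endothelial marker. These sums were lower in the library in which H19 was higher. In bulk RNA, fewer cells of a type and less RNA per cell cannot be told apart. Markers of alveolar type 1 cells summed to 113 and 295, with 6 of 8 at least 1.5-fold higher, and markers of type 2 cells to 11207 and 13990, with 8 of 8 above 0. Ciliated cell markers summed to 30.2 and 48.3, with 5 of 5 measured markers above 0. These 3 sums were higher in the same library as Malat1, Neat1 and H19. Club cell markers summed to 6609 and 6259, most of it Cyp2f2; 4 of 5 measured markers lay below 0, and 2 of them, Scgb3a1 (-1.97) and Scgb3a2 (-1.43), past 1.5-fold. For comparison, 5.61% of all measured genes were 1.5-fold apart in either direction and 63.2% lay above 0. The part of these cell types in the differences of the 8 genes was not tested.

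Further noncoding RNA genes showed how far the 8 genes follow their class. Of 45 listed, 39 were in the tables (14 under an older symbol), and 21 were measured. Of these, 8 lay above 0 and 13 below, with a median of -0.05, and 2 lay past 1.5-fold below and 0 past it above. The share above 0 over all measured genes was 63.2%, with a median of 0.07. The pair past 1.5-fold were Rpph1, the RNA of the tRNA-processing enzyme RNase P, and Rmrp, the RNA of the related RNase MRP. Rpph1 had FPKM of 54.2 in the control and 22.1 in the deleted library, 2.45-fold lower (2.06 to 2.93). Rmrp had 24.1 and 11.6, 2.08-fold lower (1.59 to 2.77). These are short, at 325 and 275 bases, and unlike the 8 genes they are made by RNA polymerase III. Whether length or polymerase bears on their differences was not tested. Over all measured genes 5.61% were 1.5-fold apart, so for 21 genes a count of 2 is near the background.

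Some other long RNAs of the list are given by their levels. Xist, the RNA that coats the inactive X chromosome, had FPKM of 53.9 and 51.9, Tug1 12.1 and 11.8, and the imprinted antisense RNA Kcnq1ot1 2.06 and 1.89. The interval of the ratio lay below 1 for Xist (0.951 to 0.989) and Kcnq1ot1 (0.878 to 0.957) and held 1 for Tug1 (0.900 to 1.05). Over all measured genes 42.0% had an interval that left out 1. Peg13, an imprinted RNA, had 3.52 and 3.85, with an interval of the ratio that held 1. Airn, a further imprinted antisense RNA with 4 entries, had summed FPKM of 2.30 and 2.19 but about 56 and 61 reads, so no direction can be given for it. Without known strandedness, reads of such antisense RNAs and of the genes they overlap cannot be told apart. Among further snoRNA hosts, Zfas1 had 10.6 and 12.4, Snhg8 5.06 and 6.07 and Snhg3 4.21 and 4.04, each with an interval of the ratio that held 1. Snhg11, listed under a coding accession, had 4.29 and 6.48, a ratio of 1.51 (1.37 to 1.67), just short of 1.5-fold with the pseudocount. Among the 170 measured genes with noncoding entries only, the median was -0.04 and 43.5% lay above 0, against 0.07 and 63.7% for 9651 genes with coding entries. The noncoding entries include pseudogenes, whose reads can come from their parent genes.

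**Figure D3:**
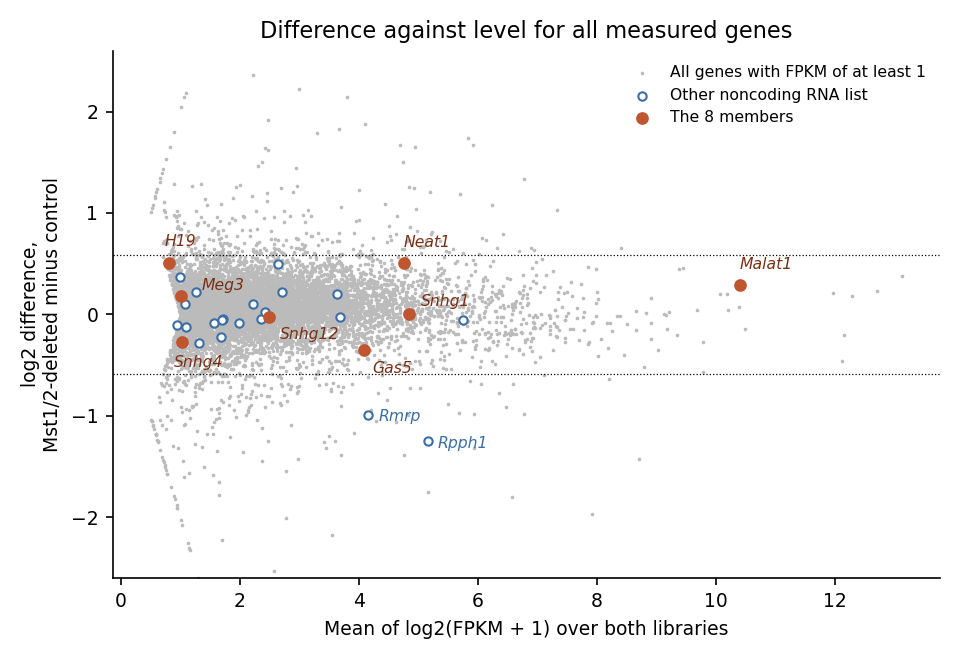
Difference (Mst1/2-deleted minus control on the log2(FPKM + 1) scale) against mean level for 9945 measured genes in grey, other noncoding RNAs as open circles and the 8 genes as filled circles; dotted lines mark 1.5-fold, and 13 genes beyond 2.6 in either direction lie outside the plot. The 8 genes lie between the dotted lines, while Rmrp and Rpph1 lie below the lower one.

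Genes that work with snoRNA hosts were compared last. The counts below stand against 63.2% above 0 and a median of 0.07 over all measured genes. Of 10 genes for proteins bound to snoRNAs, 9 were measured, 4 above and 5 below 0, with 0 at 1.5-fold and a median of -0.03. Nhp2l1, whose protein binds the C box and D box fold, had FPKM of 15.8 and 12.5, and the core protein gene Nop56 13.8 and 13.4. Of 15 TOP genes of translation other than hosts of the Snhg kind, 4 were above and 11 below 0, with a median of -0.02 and 0 at 1.5-fold. Eef1a1, the elongation factor gene, had 578 and 574, and Tpt1 180 and 178. Gas5, at -0.35, lay below all of these 15 but Rpsa (-0.46), with Eif3e next to it at -0.35. The Gas5 entry covers 2554 bases of a span of 3372, so its level may include reads from introns. Of 12 protein-coding snoRNA hosts, 5 were above and 7 below 0 (median -0.02, 0 at 1.5-fold), with the chaperone gene Hspa8 at 592 and 603 and Eef2 at 153 and 170.

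Of 10 nonsense-mediated decay genes, 8 lay above 0, with a median of 0.13. Over all measured genes 63.2% lay above 0, with a median of 0.07, so for 10 genes a count of 8 is near the background. Smg1, the kinase of the pathway, had FPKM of 6.17 and 6.93.

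**Figure D4:**
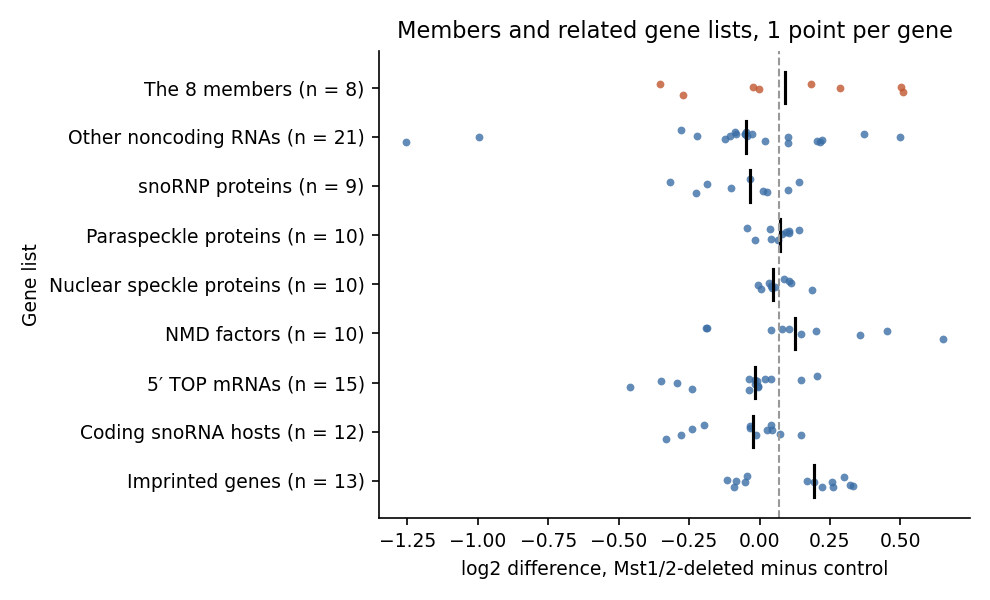
Difference on the log2(FPKM + 1) scale (Mst1/2-deleted minus control) for each measured gene of each list, with the list median as a black bar and the median of all measured genes (0.07) as a dashed line. Medians run from -0.05 for other noncoding RNAs to 0.19 for imprinted genes, and the 8 genes (median 0.09) are more spread out than the speckle and paraspeckle protein genes.

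**Figure D5:**
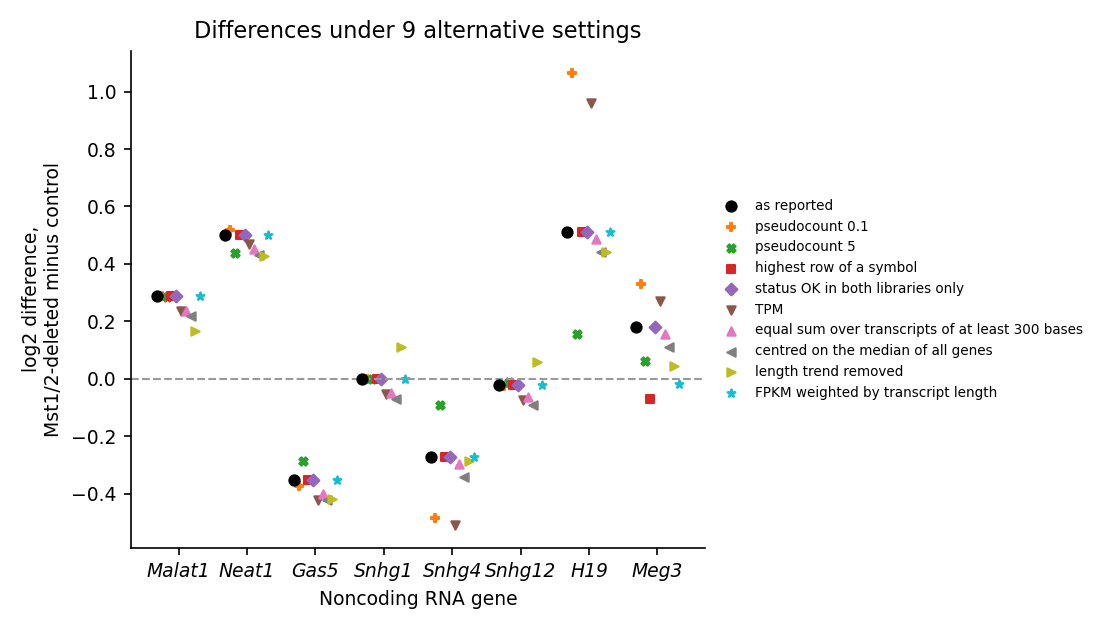
Difference on the log2 scale for each of the 8 genes as reported (black circles) and under 9 alternative settings. Malat1, Neat1 and H19 stay above 0 and Gas5 and Snhg4 below 0 in all 9, whereas Snhg1, Snhg12 and Meg3 lie on both sides of 0. For a gene with 1 entry, the pseudocount, the choice of row and length weighting cannot change the sign. The status filter changed no value here, so only the scalings and the length trend bear on the sign. The counting interval of Snhg4 (0.396 to 1.17) holds 1.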

How the data were processed

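RNA-seq was done on 2 libraries, 1 per genotype, each from RNA pooled from 4 mice. The submitters' processing notes name TopHat, Cufflinks and mm9. For their versions, the read length and the strandedness, the sources used here give nothing. The authors deposited an FPKM value for each of 28107 transcript entries, and, per the file headers, the coverage (a signal, the mean read depth over the transcript), the length and an estimation status. FPKM was summed per symbol. Differences are log2((FPKM + 1) deleted / (FPKM + 1) control), for genes that reach FPKM of 1 in 1 or both libraries; the pseudocount understates differences of low genes. Members of lists were counted at 1.5-fold on this scale.

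Reads were approximated as coverage times length over 47.1 bases, the median of values between 25 and 75 bases in single-transcript genes, which was taken as 1 read and is an assumption. Exact (Clopper-Pearson) 95% intervals of ratios, scaled by the depth ratio of 0.895, use these reads; levels use exact Poisson intervals. For Meg3 the counting variances of its rows were combined on the log scale. The interval code was tested on simulated data. Start positions were raised by 1 to count from 1. Python 3.11.15, scipy 1.17.1 and statsmodels 0.14.6 were used.

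The 8 genes and the gene lists were chosen with earlier results of these data known. The text names all 8 genes, the short RNAs inside them with reads and, for each list, the genes at 1.5-fold and the 2 most abundant. Snhg3, Snhg8, Snhg11, Zfas1, Tug1, Kcnq1ot1, Airn, Peg13, Igf2, Rian, Dlk1, Rtl1, Rpsa, Eif3e, Cdh5, Tie1 and the genomic neighbours were added after their values were seen. A few genes that these rules would name are not reported here.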

Additional observations from a re-analysis of the deposited data

How the results depend on the processing

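Alternatives were the pseudocount, the filter, the row of a symbol, the status, the scaling, a length trend and, chosen after seeing the data, weighting of rows by length. Malat1's log2 difference (0.29 as reported) was 0.24 after conversion to TPM and with equal sums over transcripts of at least 300 bases, 0.22 centred on the median of all genes and 0.17 without the length trend. H19's (0.51) was 1.06 with a pseudocount of 0.1, 0.16 with one of 5 and 0.96 as TPM; with 0.1 and as TPM it was then the 1 gene of the 8 at 1.5-fold. Meg3's (0.18) was -0.071 with its highest row. The median of the 8 (0.09) was -0.00083 both with the highest row and with length weighting. Other noncoding RNAs at 1.5-fold (2 as reported) numbered 7 as TPM, and 1 passed 2-fold. All genes at 1.5-fold (558) numbered 1090 with a pseudocount of 0.1, 152 with one of 5, 2192 as TPM and 265 at FPKM of at least 5, and 172 passed 2-fold. A rescaling moves the pseudocount and the filter relative to the values. With reads of 100 bases, each of the 8 intervals kept its side of 1 or still held it. No paired analysis was possible because each group has 1 library. Depth limits Snhg4, Snhg12, H19 and the short RNAs, which rest on under 100 reads per library.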

Other observations

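Genes for protein subunits of RNase P and RNase MRP were read beside Rpph1 and Rmrp, from a list made after those RNAs were seen to be lower. Of 10 genes 8 were measured, 5 above 0 and 3 below, with 0 at 1.5-fold on the log2(FPKM + 1) scale and a median of 0.02. Rpp21 had FPKM of 7.93 in the control and 8.06 in the deleted library, Rpp14 3.70 and 4.41, and Rpp30 1.82 and 2.92, while Pop7 had 1.86 and 1.03. Other small structured RNAs had few reads. Of 6 that were listed, 2 were measured, 1 above 0 and 1 past 1.5-fold below. The lower one was Rnu73b, with FPKM of 1.98 and 0 on about 4 and 0 reads. Its interval of the ratio, 0 to 1.69, held 1. Over all 9945 measured genes 63.2% lay above 0 and 5.61% were 1.5-fold apart. Of these genes, 9651 have coding entries of at least 300 bases, so the shares say little about RNAs this short. Rnu12, the U12 RNA of the minor spliceosome, had 5.49 and 6.74 on about 22 and 24 reads, and Terc, the telomerase RNA, 0.280 and 0 on about 3 and 0 reads.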
